A study of Homo sapiens with 6 samples.

Results

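The ABC transporters are the genes whose symbol in the deposited tables is ABC, a subfamily letter from A to G and a number, with pseudogenes left out. The 41 such genes described here come from tables of 32029 genes in all, and 26 of them had 10 or more reads in at least 3 cultures, as did 15187 genes overall. The other 15 are named below. Every count came from cultures of SW480, a line of human colorectal adenocarcinoma cells, 48 h after transfection with siControl (labelled siNC, genotype WT, 3 control cultures) or with siZEB1 (genotype ZEB1 knockdown, 3 knockdown cultures), which the study describes as biological replicates. Both groups went through transfection, no untransfected cells are among the samples, and the sequence and number of the siRNAs against ZEB1, a zinc finger repressor of epithelial genes, are not given in the sources used here. RNA was taken from whole cultures, so fewer cells carrying a transcript and less of it per cell cannot be told apart.

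ABC proteins bind and hydrolyse ATP at paired nucleotide-binding domains and use the energy to move lipids, drugs, peptides, metals or conjugates across membranes. Subfamilies A and G are best known for lipid and sterol transport, B and C for multidrug efflux, mitochondrial export and ion channel regulation, and D for peroxisomal import. Members of E and F have no membrane domain and act on ribosomes. In the intestine, efflux pumps at the cell surface limit the uptake of drugs, and in tumour cells the same pumps can carry chemotherapeutic agents out of the cell.

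Each culture gave 19040636 to 22357633 counts in all. ZEB1 itself had 1247, 1276 and 908 reads in control and 136, 132 and 162 in knockdown cultures, a log2 fold change of -2.85 (adjusted p = 3.49e-12, standard error SE 0.11, edgeR's quasi-likelihood test with Benjamini-Hochberg adjustment over 15187 genes). Levels are given as CPM, counts per 1e6 counts of the library after TMM scaling, as the mean ± SD of 3 cultures, and a gene is called higher or lower at an adjusted p under 0.05. Of 10 markers of colon epithelium, 7 passed the filter, CDX1 is not listed, and CDH17 and LGALS4 stayed below it. The summed level of that list was 4800 to 5430 CPM with siControl and 5320 to 5990 CPM with siZEB1, with KRT8 the most abundant. No marker of immune cells or hepatocytes out of 6 and 4 passed the filter, PTPRC and TTR are not listed, and the fibroblast list summed to 13.4 to 14.9 CPM and 13.3 to 15.2 CPM. The endothelial list summed to 2.02 to 2.72 CPM and 1.53 to 2.60 CPM, and CDH5 and KDR are not listed.

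In SW480 cells the most abundant transcripts of the family came from ABCF1 and ABCE1, which act on ribosomes and move no substrate across a membrane. To compare genes with one another, CPM was divided by the kilobases of annotated exon of each gene. On that scale ABCF1, which takes part in translation initiation, had the highest siControl level at 68.2 ± 1.84 CPM per kb, followed by ABCE1, the ribosome recycling factor, at 34.6 ± 2.69 CPM per kb. Next came ABCC1, the broad-specificity pump MRP1, at 21.3 ± 0.863 CPM per kb. The intervals of mean ± SD of these 3 genes do not touch. ABCC5, ABCF3, ABCD3 and ABCF2 lay within 9.29 to 10.5 CPM per kb, close enough that neighbours in this order were within their spread. In reads, ABCF1, ABCE1 and ABCC1 together held 54.9% of all reads on the 41 genes over the 6 cultures, and the top 8 members held 84.2%. The total level of the 41 genes was 1240 ± 25.8 CPM with siControl and 1260 ± 14.2 CPM with siZEB1, so they took together about the same share of the reads in both groups (ratio 1.02).

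**Figure D1:**
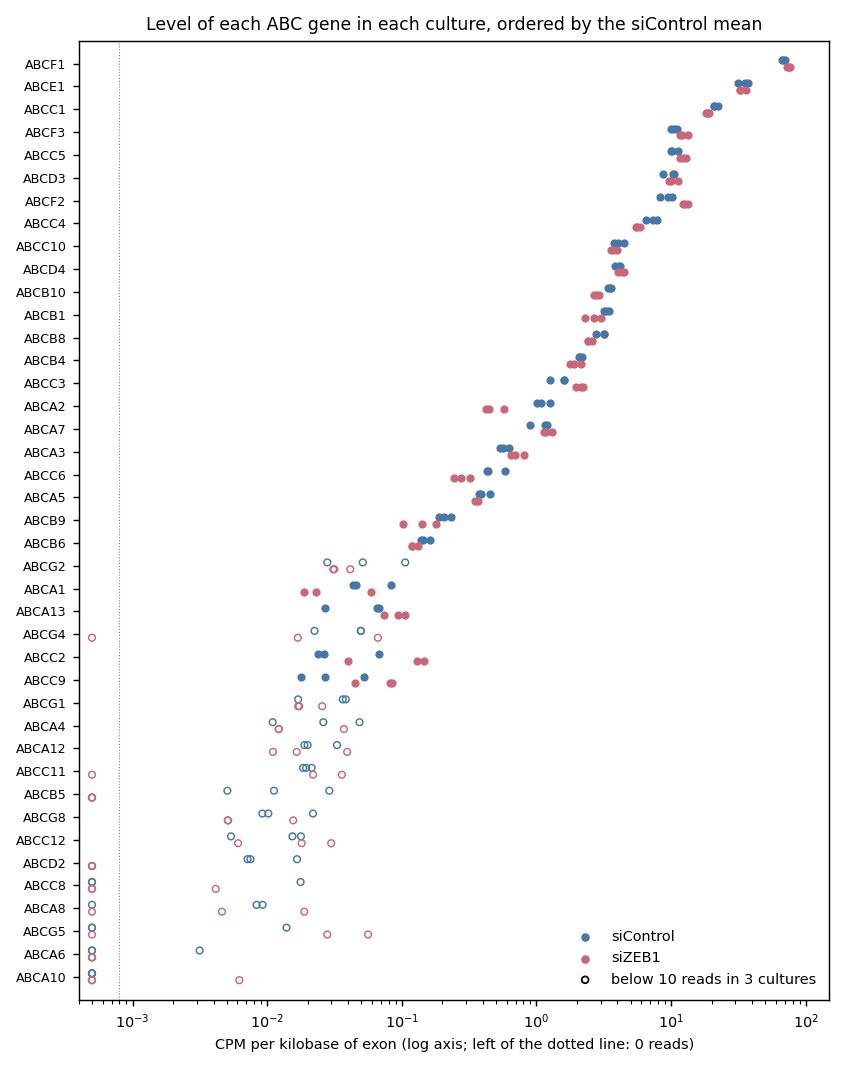
Level of each of the 41 ABC genes in each of the 6 cultures, in CPM per kilobase of exon on a log axis, ordered by the siControl mean (blue, siControl; red, siZEB1; open circles, the 15 genes below 10 reads in 3 cultures). Group means of the filled genes run from 0.0324 (ABCC9, siControl) to 74.7 CPM per kb (ABCF1, siZEB1). All members of subfamily G are open circles in the lower part of the order. Of these, ABCG2 (0.0618, siControl) lies above the filled genes ABCA1, ABCA13, ABCC2 and ABCC9.

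Of the 26 tested members, 13 were called (50%), beside 39.8% of all genes tested. The 5 called higher make 19.2% of the members, beside 18.8% of all genes, and the 8 called lower make 30.8%, beside 21.0% of all genes. Those called higher include ABCC2, which its siControl reads alone would have left out of the test. The shares are near those of all genes for higher calls and for calls in either direction, and with 26 genes the counts are read as a description of which members moved. The groups did not overlap at 17 members (65.4%), beside 49.2% of all genes, and 3 members were called with a fold change above 1.5 (14.8% of all genes met that rule). The median log2 fold change of the tested members was -0.083, and that of all genes tested was -0.0053. Of these members ABCA2 and ABCC6 fell the most, ABCC2 had the largest rise, and ABCC3 and ABCF2 rose by less than 1.5-fold.

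By subfamily, 1 of 6 tested ABCA genes was called, and it was lower. Of 6 ABCB genes, 4 were lower and the other 2 were not called, whereas the 8 ABCC genes were divided evenly into 3 higher and 3 lower, with 2 not called. ABCD3, ABCD4 and ABCE1 were not called, and 2 of 3 ABCF genes were higher. No ABCG gene reached the test. Of all genes tested, 21.0% were lower and 18.8% higher, and with so few genes per subfamily these counts are a description. Summed levels went, siControl to siZEB1, from 34.0 ± 2.81 to 28.6 ± 1.13 CPM for ABCA, from 82.6 ± 2.55 to 68.0 ± 0.558 for ABCB, from 396 ± 16.5 to 385 ± 11.4 for ABCC and from 402 ± 13.5 to 456 ± 14.5 CPM for ABCF. The ABCF sums of the 3 siZEB1 cultures lay above all siControl sums, and the ABCA and ABCB sums lay below them. Taken gene by gene, the groups did not overlap at 49.2% of all genes tested. ABCA2 alone went from 12.9 ± 1.49 to 5.54 ± 0.918 CPM, a larger fall than that of the ABCA sum. Of the other tested ABCA genes, ABCA3, ABCA7 and ABCA13 had higher siZEB1 means, and ABCA1 and ABCA5 had lower ones.

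**Figure D2:**
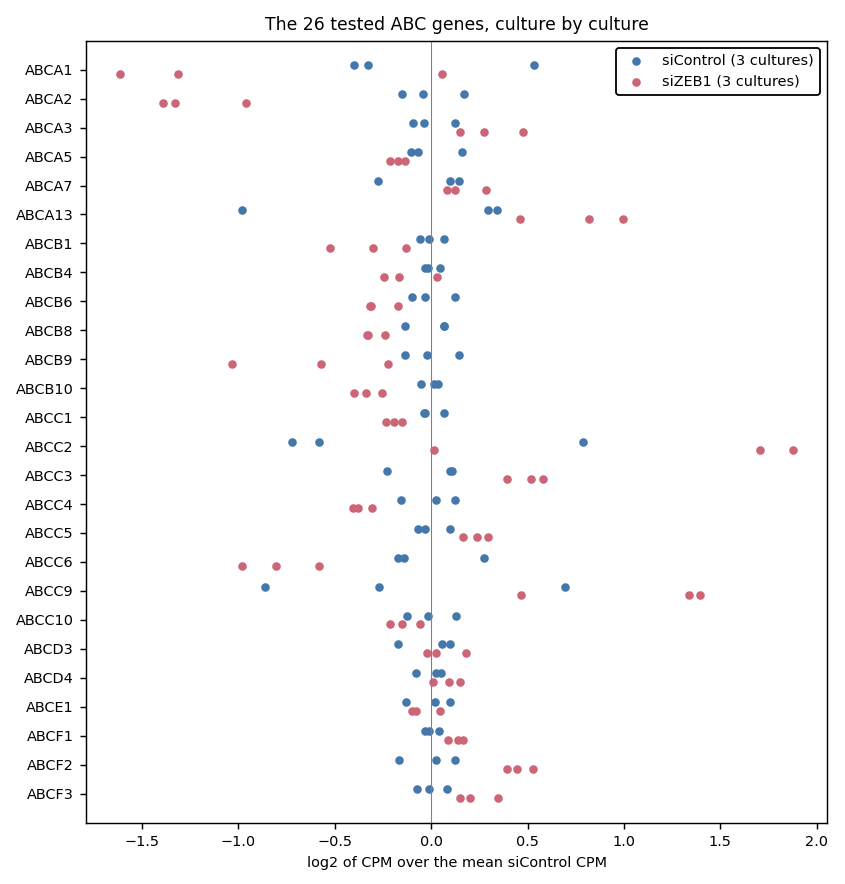
Level of the 26 tested ABC genes in each culture as log2 of its CPM over the mean siControl CPM of that gene (blue, siControl; red, siZEB1, 3 cultures each). The 2 colours are clear of each other at ABCA2, ABCC6, ABCC3 and ABCF2, and they mix at ABCC2, ABCC9 and ABCA1, whose points are spread over more than 1 log2 unit within a group.

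The genes of the plasma membrane efflux pumps are those most often discussed for drug resistance, and SW480 cells expressed them unevenly. Per kb of exon, siControl levels were 21.3 CPM for ABCC1, 10.5 for ABCC5 and 7.22 for ABCC4, then 4.12 for ABCC10, 3.30 for ABCB1 and 1.49 for ABCC3, whereas ABCC2 had a few reads, and ABCG2 and ABCC11 did not reach the filter. The 9 pumps together had 411 ± 16.6 CPM with siControl and 397 ± 10.9 CPM with siZEB1. Among the 7 tested, 3 were called higher (42.9%, beside 18.8% of all genes tested) and 3 lower (42.9%, beside 21.0%). The higher share includes ABCC2, which passed the filter only with its siZEB1 cultures, the group where it was higher. With 7 genes these shares are a description, and of the 6 calls those of ABCB1, ABCC1, ABCC2 and ABCC5 were lost in at least 1 fit with a culture left out, as given for each gene.

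ABCB1 encodes P-glycoprotein, the classic multidrug efflux pump (ENSG00000085563, chromosome 7 from 87503633 to 87713323 in GENCODE 29 on GRCh38, as are all gene coordinates here). It had 392, 449 and 367 reads in control and 251, 298 and 335 in knockdown cultures, or 19.1 ± 0.822 and 15.4 ± 2.10 CPM. All 3 siZEB1 cultures lay below the siControl cultures on the CPM scale. The log2 fold change was -0.31 (adjusted p = 0.0216, SE 0.10, edgeR's quasi-likelihood test). The call was lost without siNC replicate 2 (adjusted p = 0.0887), without siZEB1 replicate 1 (adjusted p = 0.142) and without siZEB1 replicate 2 (adjusted p = 0.0541), with the fold change at -0.28, -0.22 and -0.32.

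ABCC1 (MRP1), which exports glutathione conjugates and several anticancer drugs, had 3373, 3792 and 3038 reads in control and 2745, 2629 and 2704 in knockdown cultures, or 162 ± 6.53 and 141 ± 4.33 CPM. It fell by 12.8%, a log2 fold change of -0.20 (adjusted p = 0.0147, SE 0.0602), and the groups did not overlap. The call did not hold without siNC replicate 2 (adjusted p = 0.0938), without siZEB1 replicate 2 (adjusted p = 0.0731) or with the replicate number as a block (adjusted p = 0.0865). ABCC4 (MRP4), an exporter of cyclic nucleotides and nucleotide analogues, fell from 62.4 ± 6.05 to 48.5 ± 1.72 CPM. Its reads were 1446, 1422 and 1079 in control and 891, 924 and 967 in knockdown cultures, and the log2 fold change was -0.36 (adjusted p = 0.00121, SE 0.0778). Its 3 siZEB1 cultures were all below the lowest siControl culture, and the call held in each of the 13 alternative fits.

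ABCC3 (MRP3), a basolateral exporter of organic anions such as glucuronides and bile salts, moved the other way. It had 259, 346 and 295 reads in control and 405, 394 and 361 in knockdown cultures, or 14.3 ± 1.85 and 20.2 ± 1.31 CPM. The log2 fold change was 0.50 (adjusted p = 8.78e-04, SE 0.10), the groups did not overlap, and the gene was called in each of the 13 alternative fits. ABCC5 (MRP5), which also exports cyclic nucleotides and folate analogues, had 2490, 2870 and 2207 reads in control and 2779, 2580 and 2700 in knockdown cultures. Its level rose from 120 ± 7.28 to 141 ± 6.5 CPM, without overlap, by 0.23 on the log2 scale (adjusted p = 0.00912, SE 0.0656). The adjusted p was 0.0664 without siZEB1 replicate 1 and 0.0513 with the replicate number as a block.

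ABCC2 (MRP2), the apical counterpart of ABCC3 in polarised epithelium, had the largest fold change of the tested members and among the fewest reads. The siControl cultures had 4, 12 and 4 reads and the siZEB1 cultures 19, 22 and 6 (0.310 ± 0.195 and 0.820 ± 0.445 CPM). The groups overlapped, since the siZEB1 culture with 6 reads lay below the siControl culture with 12. The log2 fold change was 1.36 (adjusted p = 0.0464, SE 0.52), with a 95% confidence interval from 0.26 to 2.46. Leaving out siNC replicate 1 or 3 gave an adjusted p of 0.145 or 0.0857, and leaving out siZEB1 replicate 1 or 2 gave 0.149 or 0.192. The log2 fold change itself ran from 1.04 without siZEB1 replicate 2 to 2.02 without siNC replicate 2. The adjusted p was 0.0649 in DESeq2's Wald test and 0.0519 with scaling by the total counts alone. ABCC2 passed the filter through 2 siZEB1 cultures and 1 siControl culture, and its siControl reads alone would have left it out. ABCC9 and ABCA1 likewise had 10 reads in all 3 cultures of the group where they were higher and in 1 culture of the other.

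ABCC10 (MRP7), a lipophilic drug pump, was not called, with 651, 738 and 702 reads in control and 566, 552 and 612 in knockdown cultures. Its level was 33.3 ± 2.92 and 30.2 ± 1.64 CPM, the groups overlapped, and the log2 fold change was -0.14 (adjusted p = 0.202, SE 0.0839, 95% confidence interval -0.32 to 0.038). ABCG2, the breast cancer resistance protein BCRP (ENSG00000118777, chromosome 4 from 88090264 to 88231322), had 3, 12 and 5 reads in control and 3, 3 and 4 in knockdown cultures. ABCC11 (MRP8) had 3 reads in each siControl culture and 3, 5 and 0 with siZEB1. Neither gene was tested in the main fit, and so few reads limit what difference could be seen. ABCB11, the bile salt export pump, and ABCA9 are not among the listed genes and have no counts here.

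**Figure D3:**
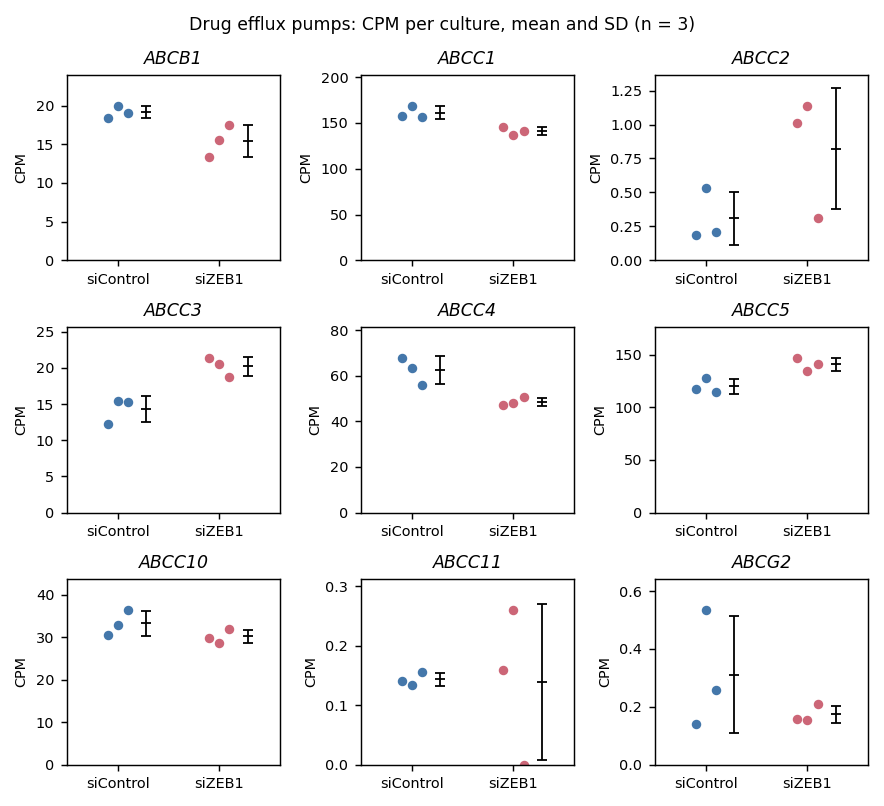
CPM of the 9 drug efflux pumps in each culture (points; blue, siControl; red, siZEB1), with the mean and SD of 3 cultures beside them in black, each panel on its own linear axis from 0. ABCC1, ABCC4 and ABCB1 lie lower and ABCC3 and ABCC5 higher with siZEB1 without overlap, and the panels of ABCC2, ABCC11 and ABCG2 are drawn from at most 22 reads per culture.

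Among the ABCA genes, ABCA2 had the smallest adjusted p of the members described. ABCA2 encodes a transporter of late endosomes and lysosomes that takes part in sterol and sphingolipid handling (ENSG00000107331, chromosome 9 from 137007227 to 137028922). It had 247, 281 and 280 reads in control and 97, 127 and 94 in knockdown cultures, or 12.9 ± 1.49 and 5.54 ± 0.918 CPM. The highest siZEB1 culture was far below the lowest siControl culture. The fall was 2.32-fold, a log2 fold change of -1.21 (adjusted p = 1.58e-06, SE 0.13), and between -1.36 and -1.12 with any culture left out.

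The other 5 tested ABCA genes were not called. ABCA1, the exporter that loads cholesterol onto apolipoprotein A-I, had 20, 11 and 10 reads in control and 4, 13 and 5 in knockdown cultures, a log2 fold change of -0.75 (adjusted p = 0.233, SE 0.48) with overlapping groups. Single cultures set its size, which was -0.39 without siNC replicate 1 and -1.44 without siZEB1 replicate 2, and no such fit called it. ABCA13, a very large protein of little known function, had 11, 28 and 25 reads in control and 34, 27 and 39 in knockdown cultures, and its log2 fold change of 0.78 (adjusted p = 0.0613, SE 0.32) passed the threshold without siNC replicate 3 (adjusted p = 0.0271), with no filter (adjusted p = 0.0367) and with 10 counts required in every culture (adjusted p = 0.0467). The level of ABCA3, the surfactant lipid transporter of lung, was 4.51 ± 0.354 and 5.58 ± 0.648 CPM (adjusted p = 0.109). ABCA5, found in lysosomes, was at 5.33 ± 0.550 and 4.73 ± 0.125 CPM (adjusted p = 0.360), and ABCA7, a phospholipid transporter known from Alzheimer's disease genetics, at 9.06 ± 1.40 and 10.2 ± 0.758 CPM (adjusted p = 0.316).

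The ABCB genes beside ABCB1 mostly serve organelles. ABCB8, of the mitochondrial inner membrane, had 551, 668 and 576 reads in control and 427, 464 and 436 in knockdown cultures, and fell by 0.30 on the log2 scale (adjusted p = 0.00923, SE 0.0848). ABCB10, which takes part in heme synthesis in the same membrane, had 321, 322 and 295 reads and then 223, 218 and 240, and fell by 0.33 (adjusted p = 0.0114, SE 0.0954). The groups of both genes did not overlap. The adjusted p of ABCB8 was 0.0528 without siNC replicate 2, and that of ABCB10 was 0.0533 without siZEB1 replicate 2.

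ABCB9, the lysosomal peptide transporter related to TAP, had 54, 69 and 53 reads in control and 45, 36 and 26 in knockdown cultures (2.79 ± 0.274 and 1.87 ± 0.512 CPM). Its log2 fold change was -0.58 (adjusted p = 0.0478, SE 0.22) without overlap. It was called in 5 of 13 alternative fits. The adjusted p was 0.0544, 0.159 and 0.0577 without siNC replicate 1, 2 or 3, and 0.0956 and 0.194 without siZEB1 replicate 2 or 3, where the fold change was -0.58 and -0.39. DESeq2's Wald test gave an adjusted p of 0.103, median-of-ratios size factors 0.0508, and the replicate number as a block 0.0605. Exons of ARL6IP4, OGFOD2 and AC026362.1 on the opposite strand cover 24.5% of the exonic bases of ABCB9, so reads could come from either strand if the counting did not use it.

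ABCB4, which flips phosphatidylcholine into bile, stood at 16.4 ± 0.490 and 15.1 ± 1.49 CPM (adjusted p = 0.341). ABCB6, a porphyrin transporter, had 12 to 18 reads in every culture (adjusted p = 0.570), and AC068946.2 covers 54.7% of its exonic bases on the same strand, so its count is uncertain.

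ABCD3 (PMP70), which imports branched-chain acids and bile acid intermediates, had 75.0 ± 7.33 and 78.4 ± 5.90 CPM (adjusted p = 0.559). ABCD4, which releases cobalamin from lysosomes, had 35.4 ± 1.63 and 37.5 ± 1.81 CPM (adjusted p = 0.410).

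ABCC6, whose loss causes the ectopic mineralisation of pseudoxanthoma elasticum, had 69, 99 and 64 reads in control and 35, 47 and 40 in knockdown cultures (ENSG00000091262, chromosome 16 from 16148928 to 16223522). The level was 3.66 ± 0.658 and 2.13 ± 0.297 CPM without overlap, a log2 fold change of -0.78 (adjusted p = 0.00444, SE 0.20). Its nearly identical pseudogene ABCC6P1 had 50, 55 and 36 reads and then 27, 36 and 34 (log2 fold change -0.40, adjusted p = 0.170, SE 0.22). How reads shared by such copies were counted is not given in the sources used here, so the value of ABCC6 is uncertain. ABCC9, the sulfonylurea receptor SUR2 that regulates KATP channels, had 13, 7 and 4 reads in control and 18, 10 and 19 in knockdown cultures. Its log2 fold change of 1.10 (adjusted p = 0.0588, SE 0.44) came with overlapping groups, and it passed the threshold without siNC replicate 1 (adjusted p = 0.0210) or without siZEB1 replicate 2 (adjusted p = 0.0322).

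**Figure D4:**
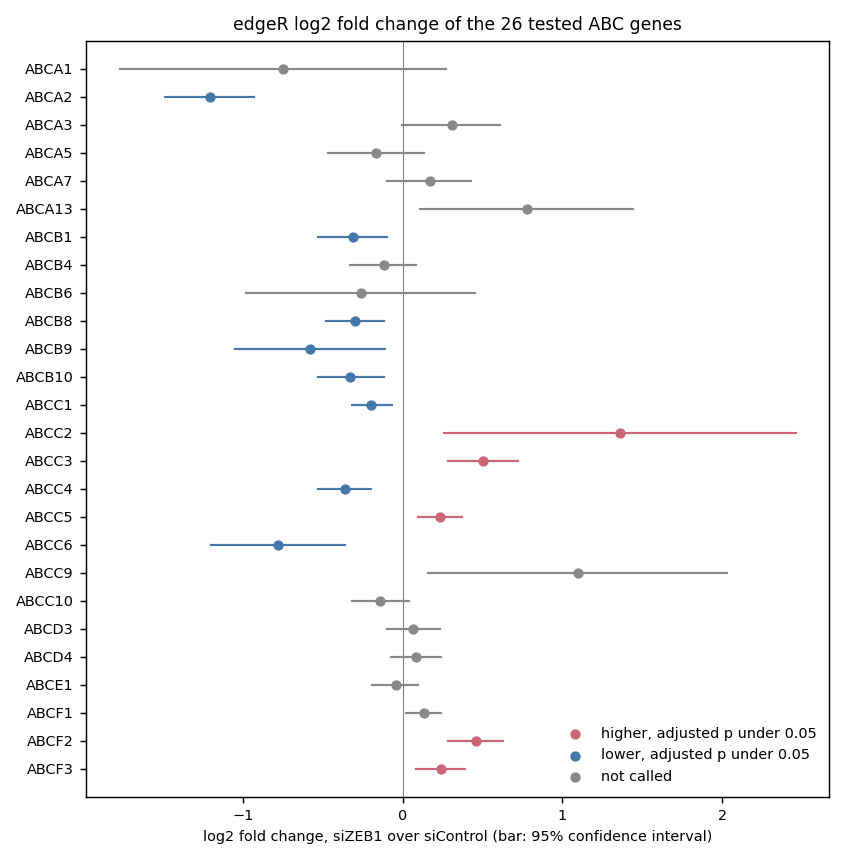
Log2 fold change of siZEB1 over siControl for the 26 tested ABC genes from edgeR, with the 95% confidence interval as a bar (red, called higher; blue, called lower; grey, not called). The interval of ABCC2 runs from 0.26 to 2.46 and that of ABCF1 from 0.018 to 0.24.

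Of the members without a membrane domain, ABCF1 and ABCE1 had the highest siControl levels per kb of the 41 genes. ABCF3 and ABCF2 lay near the membrane transporters ABCC5 and ABCD3. ABCF2 had 738, 949 and 763 reads in control and 1000, 1077 and 975 in knockdown cultures, or 38.8 ± 3.89 and 53.2 ± 2.55 CPM without overlap. The log2 fold change was 0.46 (adjusted p = 2.37e-04, SE 0.0811), and it was called in each of the 13 alternative fits. AC021097.2 covers 45.8% of the exonic bases of ABCF2 on the same strand, so part of its count depends on how shared reads were treated. ABCF3, the counterpart of a yeast activator of the eIF2 kinase, had 1108, 1217 and 1118 reads and then 1318, 1213 and 1166, and rose from 54.7 ± 2.98 to 64.5 ± 4.63 CPM (log2 fold change 0.24, adjusted p = 0.0159, SE 0.0738). The call of ABCF3 did not hold without siNC replicate 1 or 2 or siZEB1 replicate 1 (adjusted p = 0.0606, 0.0584 and 0.121) or with the replicate number as a block (adjusted p = 0.0655).

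ABCF1, with 309 ± 8.34 and 338 ± 8.93 CPM, had higher values in all siZEB1 cultures and a log2 fold change of 0.13 (adjusted p = 0.0618, SE 0.0537). It passed the threshold without siNC replicate 3 (adjusted p = 0.0334), without siZEB1 replicate 3 (adjusted p = 0.0488) and with median-of-ratios size factors (adjusted p = 0.0490). ABCE1 had 217 ± 16.8 and 210 ± 12 CPM, with overlapping groups and a log2 fold change of -0.044 (adjusted p = 0.632, SE 0.0668). Its 95% confidence interval from -0.19 to 0.096 bounds any change at these depths.

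The 15 members below the filter were ABCA4, ABCA6, ABCA8, ABCA10, ABCA12, ABCB5, ABCC8, ABCC11, ABCC12, ABCD2, ABCG1, ABCG2, ABCG4, ABCG5 and ABCG8. They include all 5 listed ABCG genes, among them ABCG1, which passes cholesterol to HDL, and ABCG5 and ABCG8, the paired sterol exporters of enterocytes and liver. The 15 genes together had 27, 57 and 42 reads in control and 31, 24 and 29 in knockdown cultures. ABCC8, the SUR1 subunit of KATP channels, had 5 reads in siNC replicate 2, 1 in siZEB1 replicate 3 and 0 in the other cultures. ABCB5 had 1, 6 and 2 reads and ABCD2 1, 1 and 2 reads with siControl, and both had 0 in all siZEB1 cultures. A count of 0 over the siZEB1 cultures allows a level of up to 0.0522 CPM, from counting error only, so these genes were not detected at this depth rather than shown to be absent. At the edge of the filter, ABCC2 had 10 reads in 3 cultures (67 reads in all), ABCA1 in 4 cultures (63 reads) and ABCC9 in 4 cultures (71 reads), while just outside it ABCG2 had 10 reads in 1 culture (30 reads in all), and ABCA12 and ABCG4 in 0 cultures (26 reads each).

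ZEB1 binds the E-box CAGGTG, whose other strand reads CACCTG, and these letters were searched in the RefSeq promoters of GRCh38.p14, each 250 bases before to 50 after a gene's start. By symbol, 33 of 41 members matched, with 51 promoters, since a gene can have several starts, whose windows may overlap. The letters were in 12 of these 51 promoters (23.5%), beside 20.6% of all 35116 promoters in the table and 19.0% of those of tested genes. Of the promoters of members called lower, 4 of 12 held them (33.3%), of those of members called higher 0 of 4, and of those of tested members not called 3 of 13 (23.1%). Among all genes the share was 17.6% for those called lower and 21.9% for those called higher. ABCB4, ABCC1 and ABCC3 have no promoter in the table. The lines below show the letters in capitals in the 3 members called lower that hold them, and in ABCA1, ABCA3 and ABCA5, the tested members that hold them and were not called, so that the sequences can be set beside the fold changes above. Each runs 5′ to 3′ on the strand of the gene.
ABCA2, chr9:137028926-137028955, minus strand: ggggcgccccagCAGGTGccaagccacagc
ABCB8, chr7:151028233-151028262, plus strand: agcccacaggagCACCTGgcaaaagccagg
ABCB9 at one start, chr12:122966671-122966700, minus strand: aggagtttgccaCAGGTGagCAGGTGgcca
ABCB9 at another start, chr12:122974622-122974651, minus strand: ggagggcggggtCAGGTGtgggagggcgac
ABCA1, chr9:104928388-104928405, minus strand: CACCTGctgtaccctcca
ABCA3, chr16:2340789-2340818, minus strand: gggtggaccgggCACCTGcaggggcggccg
ABCA5, chr17:69327208-69327237, minus strand: gagccccgccctCAGGTGcgctctgcagga
The letters begin 21 bases before the start in ABCA2, 205 in ABCB8, 225 and 217 at the first listed ABCB9 start and 70 at the other, 78 in ABCA3 and 92 in ABCA5. The ABCC6, ABCC4, ABCB1 and ABCB10 promoters in the table, also of members called lower, lack them. These matches are descriptions of letters, and binding was not measured in these samples.

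The pathways around the members were read from lists of genes compiled by hand, with the same fit. Of ABC proteins with other symbols, TAP1 and TAP2, the peptide transporter of antigen presentation, both fell. TAP1 had 379, 374 and 345 reads in control and 239, 267 and 219 in knockdown cultures, a log2 fold change of -0.46 (adjusted p = 0.00110, SE 0.0981). TAP2 had 596, 573 and 545 reads and then 402, 363 and 352, a log2 fold change of -0.48 (adjusted p = 2.84e-04, SE 0.0875). Of the exon bases of TAP2, 32.3% are shared with AL669918.1 on the same strand, so its count is uncertain. CFTR, the chloride channel of the ABCC subfamily, had at most 6 reads in a culture and was not tested.

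Beside ABCD3, the list of peroxisomal fatty acid import and oxidation had 7 of 13 tested genes lower and 1 higher, and the median of their log2 fold changes was -0.33. ACOX3, an acyl-CoA oxidase, fell by 0.80 on the log2 scale and PEX19, the receptor for peroxisomal membrane proteins, by 0.59, whereas SLC27A2, a very long chain acyl-CoA synthetase, rose by 0.98. Beside ABCB8 and ABCB10, the list of mitochondrial heme and iron-sulfur synthesis had 10 of 17 lower and 1 higher, with a median of -0.26. Fits with a culture left out gave 7 to 10 lower (7 without siZEB1 replicate 3) and 0 or 1 higher. ALAD, the second enzyme of heme synthesis, fell by 0.91, NFS1, the cysteine desulfurase of iron-sulfur assembly, by 0.69, and SLC25A37, the mitochondrial iron importer, by 0.42. Across all genes tested, 21.0% were lower and 18.8% higher.

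Drug handling outside the family was mixed. As background for the counts of these lists, 18.8% of all genes tested were higher and 21.0% lower. Of 12 genes of drug transport, 4 were lower and 1 higher (median -0.33). Among these called genes the largest changes were those of MVP, the major vault protein (-0.55), and the copper and cisplatin exporters ATP7A (-0.45) and ATP7B (-0.39). SLC47A1 (-0.66) and SLCO1B3 (0.63) had larger estimates but were not called. ATP7A was not called without siNC replicate 2 (adjusted p = 0.0543). Of 11 receptors and regulators of drug efflux, 4 were higher and 3 lower (median 0.10). Fits with a culture left out gave 3 to 5 higher. CYP1B1 had 11, 6 and 4 reads in control and 23, 22 and 36 in knockdown cultures (log2 fold change 2.07, adjusted p = 4.52e-04, SE 0.39), CYP1A1 rose by 1.13, and AHR, the aryl hydrocarbon receptor, by 0.85. CYP1B1 had 10 reads in all 3 siZEB1 cultures and in 1 siControl culture, so it passed the filter through the group where it was high. Of the exon bases of AHR, 29.4% are shared with AC019117.2 on the same strand, so its count is uncertain. The 3 lower genes, named after their values were seen, were HNF4A (-0.63), FOXO3 (-0.54) and ARNT, the partner of AHR (-0.46). NR1I2, the xenobiotic receptor PXR, and CYP3A4 were below the filter. Of 14 genes of glutathione synthesis and conjugation, 4 were higher and 4 lower (median -0.020), with GSTM4 at -1.05, GSTZ1 at 0.61 and GSTK1 at -0.59. Each fit with a culture left out called 3 of the glutathione genes lower.

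Sterol sensing, which controls ABCA1 and ABCG1 in many cells, had 4 of 13 genes higher and 1 lower, with a median of 0.017. Beside this count and those that follow, 18.8% of all genes tested were higher and 21.0% lower. Fits with a culture left out called 0 or 1 of the sterol sensing genes lower. RXRB, a partner of the sterol receptor LXR, rose by 0.76, MYLIP, which degrades the LDL receptor, by 0.49, and APOE, a lipoprotein that accepts exported cholesterol, by 0.49. Around ABCE1 and the ABCF genes, ribosome recycling and quality control had 4 of 14 lower and 1 higher, with a median of 0.043. EIF2S1, the alpha subunit of eIF2, fell by 0.41, EIF2S3, its gamma subunit, by 0.26, and HBS1L, the partner of PELO in ribosome rescue, rose by 0.29. The pores that the SUR proteins regulate moved apart. KCNJ8, a pore that can pair with ABCC9, had 210, 214 and 194 reads in control and 82, 77 and 79 in knockdown cultures (log2 fold change -1.24, adjusted p = 4.52e-07, SE 0.12). KCNJ11, a pore that can pair with ABCC8, itself below the filter here, had 27, 18 and 26 reads and then 43, 34 and 45 (log2 fold change 0.91, adjusted p = 0.0104, SE 0.26). KCNJ11 was not called without siNC replicate 2 (adjusted p = 0.0599).

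**Figure D5:**
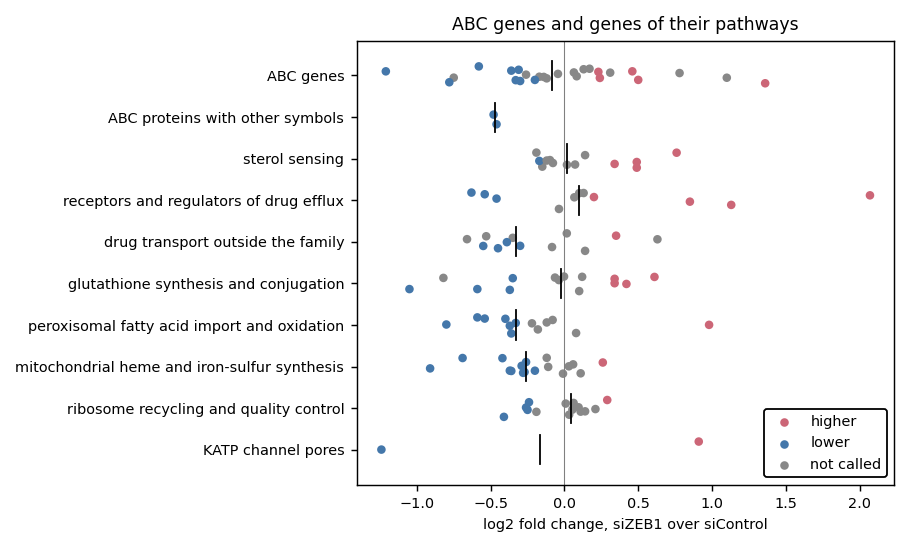
Log2 fold change of siZEB1 over siControl for the 26 tested ABC genes and for the tested genes of each list around them (each point a gene; red, called higher; blue, called lower; grey, not called; black bar, the median; the vertical scatter within a list has no meaning). The medians of peroxisomal and of mitochondrial heme and iron-sulfur genes lie at -0.33 and -0.26, and that of the ABC genes at -0.083.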

How the data were processed

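RNA of 6 SW480 cultures was sequenced on an Illumina instrument. The authors deposited read counts per Ensembl gene and culture, without normalization. The submitters' processing notes name Trimmomatic, HISAT2, SAMtools, featureCounts and hg38. Versions, annotation release, strand setting and the treatment of shared reads are not given in the sources used here. Coordinates and exon lengths were taken from GENCODE 29 on GRCh38 (31059 listed genes matched).

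Genes with 10 or more reads in at least 3 cultures (15187) were normalized by TMM and compared with no covariate by the two-sided quasi-likelihood test of edgeR, adjusted over all of them by the Benjamini-Hochberg method (R 4.3.3, edgeR 4.0.16, DESeq2 1.42.0, Python 3.11.15). The total count per culture was 19040636 to 22357633 and the biological coefficient of variation 6.58%. On simulated counts for these 15187 genes, 200 were changed. The test recovered 73.8%, 82.5% and 95.0% of those changed by 0.585, 1 and 1.5 on the log2 scale. Of its calls, 3.55% were unchanged genes. In the data 39.8% of the genes tested were called, and changes under 0.585 were not simulated, so these rates need not hold there. Replicates differed by 2.18 to 8.58 times sampling noise (chi-square over degrees of freedom), so none was a copy of another.

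The members and gene lists were chosen with earlier results of these data known. A few genes that match the rule for members are not reported here. Every other member is named, with full statistics for members called with an absolute log2 fold change of at least 0.58, for the 9 efflux pumps, for ZEB1 and for TAP1 and TAP2. Of each list, up to 3 called genes with the largest change are named. The alternatives were DESeq2's Wald test, 2 other scalings, 3 other filters, a block for the replicate number, leaving out each culture, and the fold change and p thresholds of the study.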

Additional observations from a re-analysis of the deposited data

How the results depend on the processing

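All 13 called members kept their direction in the 13 alternative fits, and 5 of them (ABCA2, ABCC3, ABCC4, ABCC6 and ABCF2) were called in every one that tested them. Of 335 member values in those fits, 297 kept direction and side of the threshold, 28 lost the call, 8 gained it and 2 changed sign: ABCD3 (-0.013 without siNC replicate 3, range -0.013 to 0.12 with a culture left out) and ABCE1 (0.0057 without siNC replicate 1, range -0.10 to 0.0057). When a fold above 1.5 with unadjusted p under 0.05 was the rule instead, 3 of 26 members were higher and 2 lower, beside 1088 and 1423 of 15187 genes. The 3 higher were ABCC2, with ABCA13 and ABCC9, which were not called by adjusted p, and the 2 lower were ABCA2 and ABCC6. ABCC2 and ABCC9 had 10 reads in only 1 siControl culture each and passed the filter through the siZEB1 group, where they were higher. At p under 0.001, 0 of 26 members were higher and 1 lower, beside 680 and 1004 of 15187 genes. With a culture left out, 2 to 6 members were called higher (2 without siZEB1 replicate 1) and 4 to 7 lower (4 without siNC replicate 2 or siZEB1 replicate 2). Calls over all genes fell in these fits too. Without siZEB1 replicate 1, 2316 genes were higher, beside 2858 in the main fit. Without siNC replicate 2 or siZEB1 replicate 2, 2617 and 2742 were lower, beside 3194. The members' median ranged from -0.088 to -0.039 with a culture left out, the last without siNC replicate 1 (-0.059 without siZEB1 replicate 2), and was -0.12 with 10 counts required in every culture, a filter that removes ABCA1, ABCC2 and ABCC9. Counts on the surrounding lists stayed within 1.5 times in 220 of 234 values from those fits, but 13 and 14 of 18 such counts moved further under the fold change rules with p under 0.05 and 0.001. The cause of these shifts was not tested.

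Deviations of same-numbered cultures from their group means correlated at -0.0742, -0.117 and -0.267, so none of these was positive. Those of differently numbered cultures correlated at -0.115 to 0.202. Deviations within a group cancel out, so these values depend on one another. The sources used here do not say whether the cultures were set up in numbered pairs. With the replicate number as a block, 3 members were called higher and 6 lower, and all genes gave 2300 and 2679. Members under about 1 CPM rest on few reads, which limits what depth could show.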

Other observations

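Beside the members, the tables list pseudogenes and an antisense gene of the family. ABCA11P had 11, 14 and 10 reads in control and 21, 12 and 14 in knockdown cultures (log2 fold change 0.56, adjusted p = 0.247, SE 0.37, edgeR's quasi-likelihood test). ABCC6P2 had 7, 11 and 12 reads and then 12, 11 and 2 (log2 fold change -0.13, adjusted p = 0.871). ABCA17P had 5 to 15 reads in a culture, and ABCB10P3 and ABCC5-AS1 had 0 or 1.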
